A study of Mus musculus with 3 samples.

Results

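The genes of synaptic vesicle release examined here were 32 of the 21938 protein-coding genes in the annotation. They were taken by name, as a pathway chosen with earlier results of these data known: 16 synaptotagmins, 3 synapsins, 4 genes of SNARE proteins, 2 complexins, 3 genes of active zone priming, 3 genes of vesicle membrane proteins and the endocytic adaptor Snap91. All 32 were found in the annotation. Enriched regions of trimethylated lysine 27 of histone H3 (H3K27me3) and of RNA polymerase II with phosphate on serine 5 (Pol2-S5p) or on serine 7 (Pol2-S7p) of its C-terminal repeats were mapped by chromatin immunoprecipitation sequencing (ChIP-seq). The cells were F123, an untreated male mouse embryonic stem cell (mESC) line of hybrid genotype from S129/Jae and Cast mice. They had been grown on inactivated embryonic fibroblasts and then passaged without this feeder layer before harvest. Each mark had 1 library from this 1 cell line and the lists did not separate the parental alleles, so the values below have no replicate error and no test between samples, and all comparisons are descriptions.

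Neurotransmitter is stored in synaptic vesicles that fuse with the plasma membrane when calcium enters the nerve terminal. Synaptotagmins sense the calcium, the SNARE proteins on vesicle and plasma membrane pull the membranes together, complexins hold and promote this assembly, and RIM and Munc13 proteins ready the vesicles at the active zone. H3K27me3 is laid down by Polycomb repressive complex PRC2 and covers many developmental and neuronal genes in embryonic stem cells. Pol2-S5p is found near starts of transcription, including those bound by Polycomb, and Pol2-S7p at genes that are productively transcribed.

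The region lists held 17342 H3K27me3, 29222 Pol2-S5p and 22320 Pol2-S7p regions, which covered 236, 330 and 261 Mb. The files gave no read counts, so depth is unknown. The cell type label was checked against markers. All 10 stem cell markers carried Pol2-S5p and Pol2-S7p at the promoter (100% for each, against 69.9% and 60.4% of protein-coding promoters). Of these, 8 lacked H3K27me3 and 2 (Klf4 and Sox2) carried it (20%, against 37.6%). Of 10 fibroblast markers 1 (Fn1) carried Pol2-S7p (10%, against 60.4%), and 4 (Col3a1, Dcn, Lum and Postn) carried no mark (against 23.5% of protein-coding promoters). Fibroblast markers had H3K27me3 at 5 (50%, against 37.6%) and Pol2-S5p at 4 (40%, against 69.9%). Of 10 neuron markers 7 carried H3K27me3 (70%, against 37.6% of protein-coding promoters). Polymerase was no rarer at them than elsewhere, with Pol2-S5p at 8 (80%, against 69.9%) and Pol2-S7p at 6 (60%, against 60.4%). Map2, Nefl, Nefm and Tubb3 carried H3K27me3 and both polymerase marks, whereas Elavl4 and Stmn2 carried both polymerase marks without H3K27me3.

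First, the promoter state of each release gene was asked for. A promoter was a window of 2 kb centred on a transcription start, and it was positive for a mark when an enriched region touched it. Where a gene had several annotated starts, the start with the most Pol2-S5p was used, for the release genes and for all other genes alike. The state named Active has both polymerase marks and lacks H3K27me3. In PRCa, for PRC-active, H3K27me3 joins both polymerase marks. In PRCr, for PRC-repressed, it joins Pol2-S5p while Pol2-S7p is missing. Inactive promoters carry none of the 3.

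H3K27me3 was present at 26 of the 32 release promoters (81.2%), compared with 37.6% of all protein-coding promoters. Pol2-S5p was present at 30 (93.8%), compared with 69.9%, and Pol2-S7p at 18 (56.2%), compared with 60.4%. The share with Pol2-S7p was thus close to the background, whereas the shares with H3K27me3 and Pol2-S5p were above it. PRCa was the most frequent state with 14 genes (43.8%, against 23.7% of protein-coding promoters), followed by PRCr with 10 genes (31.2%, against 7.69%). Another 4 genes were Active (12.5%, against 36.1%), 2 had H3K27me3 only (6.25%, against 6%) and 2 had Pol2-S5p only (6.25%, against 2.44%). No release gene was Inactive, a state of 23.5% of protein-coding promoters, and none had Pol2-S7p only (0.41% of protein-coding promoters) or H3K27me3 with Pol2-S7p (0.169%). Counted differently, all 32 carried at least 1 mark, compared with 76.5% of protein-coding promoters, and 30 carried some polymerase mark, compared with 70.5%. Among promoters that carried both H3K27me3 and Pol2-S5p, Pol2-S7p was also present at 14 of 24 release genes (58.3%), compared with 75.5% of 6894 protein-coding genes.

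**Figure D1:**
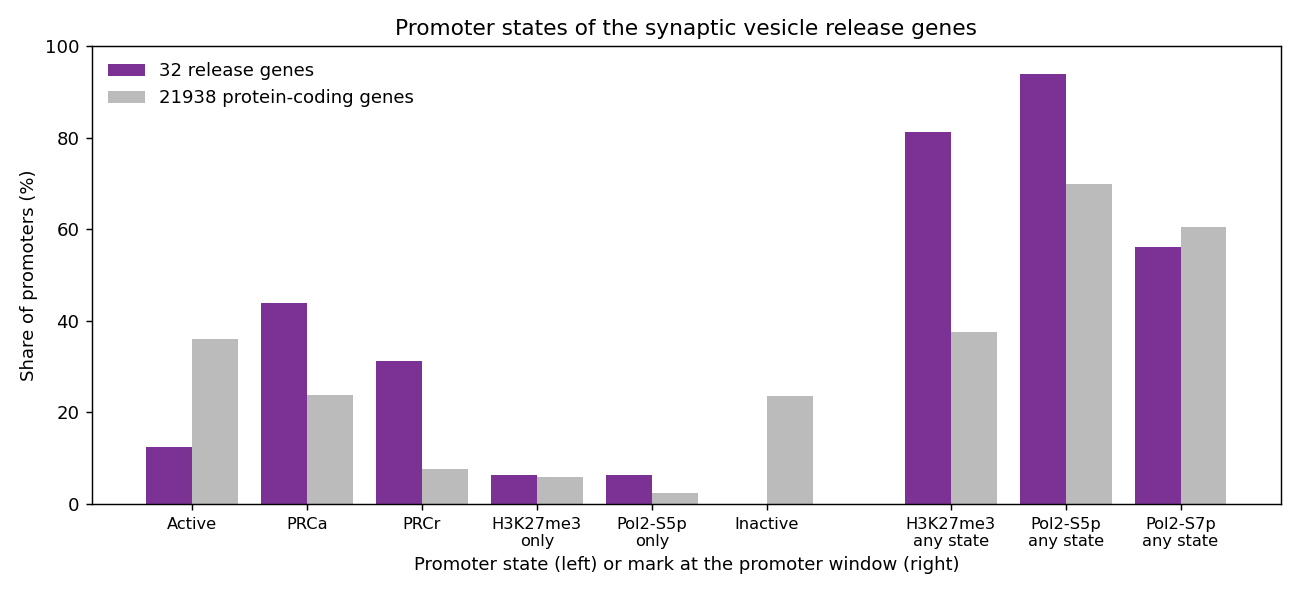
Share of promoters in each state (left groups) and with each mark in any state (right groups), in percent, for the 32 release genes (purple) and the 21938 protein-coding genes (grey). PRCa and PRCr are more frequent among the release genes (43.8% and 31.2%) than among protein-coding genes (23.7% and 7.69%), and Inactive is at 0% in the release genes.

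The 4 Active genes were Syt11, Syn3, Vamp2 and Syp. The 14 PRCa genes were Syt2, Syt7, Syt9, Syt12, Syt13, Syt17, Syn1, Snap91, Vamp1, Stx1a, Cplx1, Rims2, Unc13a and Sv2a. The 10 PRCr genes were Syt3, Syt5, Syt6, Syt8, Syt10, Syt15, Syt16, Cplx2, Rims1 and Sv2b. H3K27me3 stood alone at Syt1 and Snap25, and Pol2-S5p stood alone at Syt4 and Syn2. These calls rested on regions of any score. With a filter that kept a region only if it scored above the median of its list, H3K27me3 was at 14 release promoters (43.8%, against 24.1% of protein-coding promoters), whereas Pol2-S5p was at 10 (31.2%, against 41.3%) and Pol2-S7p at 8 (25%, against 33.7%). Only 6 of the 32 genes kept their state under this filter, and PRCr fell to 1 gene (3.12%, against 4.99%) and PRCa to 3 (9.38%, against 8.02%). The excess of Pol2-S5p and of PRCr over the background thus turned into a deficit, and the states of single genes hold for unfiltered regions.

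The promoter sequences of the release genes were then compared, because H3K27me3 and polymerase both favour promoters rich in the dinucleotide CpG. The ratio of observed to expected CpG in the 2 kb window had a median of 0.466 over the 32 genes, against 0.393 over all protein-coding genes, and ranged from 0.141 at Syt8 to 0.902 at Snap91. The bases from 250 before to 50 after the start are given for the gene with the highest ratio among the Active, the PRCa and the PRCr genes and for the gene with the lowest ratio of the 32, with every CpG in capitals (GRCm38, 5′ to 3′ on the strand of the gene). Syt11 (Active, chr3:88775115-88775414, minus strand) holds 29 CpG in these 300 bases, Snap91 (PRCa, chr9:86880348-86880647, minus strand) 42, Syt10 (PRCr, chr15:89841811-89842110, minus strand) 35 and Syt8 (PRCr, chr7:142434727-142435026, plus strand) 3.
Syt11: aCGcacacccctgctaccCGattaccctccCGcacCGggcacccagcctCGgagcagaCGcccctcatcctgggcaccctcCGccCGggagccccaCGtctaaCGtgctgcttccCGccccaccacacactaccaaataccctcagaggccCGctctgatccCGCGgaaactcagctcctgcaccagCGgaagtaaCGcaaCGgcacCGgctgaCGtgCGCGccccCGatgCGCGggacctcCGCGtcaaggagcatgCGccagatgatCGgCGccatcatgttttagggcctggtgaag
Snap91: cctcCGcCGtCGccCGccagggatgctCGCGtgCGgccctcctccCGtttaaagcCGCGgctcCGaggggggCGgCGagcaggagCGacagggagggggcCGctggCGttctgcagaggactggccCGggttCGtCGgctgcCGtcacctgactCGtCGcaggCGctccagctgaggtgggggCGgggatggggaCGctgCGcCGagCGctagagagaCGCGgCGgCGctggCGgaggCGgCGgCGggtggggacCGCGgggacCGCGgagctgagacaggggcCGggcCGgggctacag
Syt10: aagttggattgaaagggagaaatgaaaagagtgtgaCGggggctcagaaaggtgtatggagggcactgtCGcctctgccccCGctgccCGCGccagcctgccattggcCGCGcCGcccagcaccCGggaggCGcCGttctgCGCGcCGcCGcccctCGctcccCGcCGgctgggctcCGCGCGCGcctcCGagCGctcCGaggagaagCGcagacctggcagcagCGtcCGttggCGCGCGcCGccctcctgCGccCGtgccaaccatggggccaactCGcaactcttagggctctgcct
Syt8: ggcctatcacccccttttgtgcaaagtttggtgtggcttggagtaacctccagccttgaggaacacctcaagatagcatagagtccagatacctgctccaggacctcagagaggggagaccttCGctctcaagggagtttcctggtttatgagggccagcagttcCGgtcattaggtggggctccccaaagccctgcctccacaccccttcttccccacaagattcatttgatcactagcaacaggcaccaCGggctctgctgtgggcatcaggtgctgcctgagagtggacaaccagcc

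Within classes of CpG ratio, the release genes carried H3K27me3 more often than protein-coding genes did. The classes are wide and ratios were not matched within them, so the part of CpG content in this was not tested. At a ratio of 0.4 or more, 17 of 20 release promoters had H3K27me3 (85%), compared with 49.2% of 10856 protein-coding promoters, and 10 of 20 had Pol2-S7p (50%), compared with 86.1%. Pol2-S5p was at 18 of 20 (90%), compared with 96.2%. At a ratio of 0.2 to under 0.4, H3K27me3 was at 8 of 11 release promoters (72.7%), compared with 38.7% of 5479 protein-coding promoters, Pol2-S7p at 8 of 11 (72.7%), compared with 51.1%, and Pol2-S5p at 11 of 11 (100%), compared with 64.2%. The classes depend on the start used: of these 11 genes, 6 (Syt2, Syt12, Syn2, Vamp1, Stx1a and Syp) had a ratio of 0.4 or more at their most upstream start. Syt8 was the only release gene under a ratio of 0.2.

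The windows were also searched for the core of the RE1 element, the binding sequence of the repressor REST, which silences neuronal genes in other cells. The letters searched were CAGCACCNNGGACAG on both strands. They occurred in 2 of 32 release windows, those of Snap25 and Syt4 (6.25%, against 51 of 21938 protein-coding windows, 0.232%). In whole gene spans with 5 kb added on each side, a search added after the first values were seen, 7 release genes (21.9%) held 8 cores, compared with 429 protein-coding genes (1.96%). Release genes are longer than average, and per length of span this was 1.98 cores per Mb in the release genes, against 0.369 per Mb in protein-coding genes and 0.227 per Mb over the 21 chromosomes. The cores are given, except that of Syt4, in capitals with 10 bases on each side, on the strand of the motif (GRCm38), since few promoters hold them. Snap25 held a pair of cores on the plus strand, at chr2:136714290-136714304 and chr2:136714340-136714354, 0.837 and 0.887 kb after its most upstream start. The Syp core (chrX:7638739-7638753, plus strand) lay 0.268 kb after the most upstream start of that gene, and the Syt6 core (chr3:103573991-103574005, plus strand) 1.24 kb before it. Those of Syt7 (chr19:10403283-10403297, plus strand), Syt2 (chr1:134665007-134665021, plus strand) and Syt9 (chr7:107392961-107392975, minus strand) lay 14.2, 18.3 and 22.2 kb after it.
Snap25, first core: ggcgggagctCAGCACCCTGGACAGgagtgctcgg
Snap25, second core: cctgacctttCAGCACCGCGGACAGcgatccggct
Syp: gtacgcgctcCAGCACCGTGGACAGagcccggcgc
Syt6: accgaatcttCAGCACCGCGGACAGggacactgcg
Syt7: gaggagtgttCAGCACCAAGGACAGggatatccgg
Syt2: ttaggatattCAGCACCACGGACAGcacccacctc
Syt9: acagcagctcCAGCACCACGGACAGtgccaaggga

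The marks at the cores differed. The cores of Snap25, Syt2 and Syt7 lay inside H3K27me3 regions with neither polymerase mark. The Syt6 core lay inside H3K27me3 and Pol2-S5p, the Syp core inside all 3 marks, the Syt4 core, 0.21 kb after its start, inside Pol2-S5p alone, and the Syt9 core in no region. A match to these letters does not show that REST was bound, which was not measured here.

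The calcium-binding synaptotagmins were examined next. All 8 carried H3K27me3 (100%, against 37.6% of protein-coding promoters) and 7 carried Pol2-S5p (87.5%, against 69.9%). Pol2-S7p was at 3 (37.5%, against 60.4%), and none was Active (0%, against 36.1%). Syt1, the sensor of fast release in forebrain neurons (chr10:108497650-109010982), had an H3K27me3 region of 2.8 kb at its start and no polymerase region there. The region covered 1.42 kb before and 1.38 kb after the start, and 0.736% of this gene of 513 kb lay in H3K27me3. Far inside Syt1, about 381 kb after the most upstream start, all 3 marks had short regions of 1.4 to 1.6 kb at which no other protein-coding gene starts. Syt1 thus lacked polymerase at its start but not within its span.

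Syt9, another sensor of fast release, was PRCa with narrow regions of all marks, 3.8 kb of H3K27me3, 1.6 kb of Pol2-S5p and 1.2 kb of Pol2-S7p. Its polymerase regions had scores of 39.8 for Pol2-S5p and 47.0 for Pol2-S7p, above 90.8% and 94.9% of the regions in those lists. Scores come from the peak finder and have no stated unit. Other calls rested on low scores. The H3K27me3 region at Snap25 scored above 18.8% of its list, and the Pol2-S7p regions at Syt2 and Syn1 above 3.14% and 8.79%. Syt7, the high-affinity sensor of slow and asynchronous release, was also PRCa but lay inside an H3K27me3 region of 271 kb, the widest at any release promoter. That region (chr19:10214400-10485599) covered the whole gene body and held the starts of Lrrc10b, Ppp1r32 and Dagla, among others. The polymerase regions at the Syt7 start were 7.0 kb of Pol2-S5p and 6.8 kb of Pol2-S7p.

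Syt2, the fast sensor of hindbrain and neuromuscular synapses, was PRCa at the start used, which belongs to a noncoding transcript 102 kb inside the gene. At its 3 other starts, all of them coding, Syt2 was PRCr, in an H3K27me3 region of 89.8 kb. Syt3, Syt5, Syt6 and Syt10 were PRCr. Syt5 had 57.6 kb of H3K27me3 and 69.6 kb of Pol2-S5p, which both held the starts of Dnaaf3, Tnni3 and Tnnt1. Syt6 had 75.0 kb of H3K27me3 over 97.2% of its body and only 3.2 kb of Pol2-S5p. Syt3 showed the opposite pattern, with 16.0 kb of H3K27me3 and 72.2 kb of Pol2-S5p. That Pol2-S5p region reached 49.2 kb before the Syt3 start and also held the start of 1700008O03Rik. Syt10 had narrow regions of 3.6 kb of H3K27me3 and 1.0 kb of Pol2-S5p.

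The 8 other synaptotagmins bind calcium weakly or not at all or are less well characterised. Of these, 3 were PRCa (37.5%, against 23.7% of protein-coding promoters) and 3 PRCr (37.5%, against 7.69%). Among the rest, 1 was Active (12.5%, against 36.1%) and 1 had Pol2-S5p only (12.5%, against 2.44%). Syt11, which does not bind calcium in the way of Syt1, was Active and lay wholly inside a Pol2-S5p region of 80.2 kb and a Pol2-S7p region of 267 kb. The Pol2-S7p region also held the starts of Rit1, Gon4l and Khdc4. Even so, an H3K27me3 region of 2.2 kb began 12.2 kb inside Syt11, over a coding start that was PRCa. Syt4, a member induced by neuronal activity, had a single region at its start, 1.0 kb of Pol2-S5p, and no H3K27me3 in its window or body.

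Syt12, Syt13 and Syt17 were PRCa, with H3K27me3 regions of 50.4, 62.2 and 28.4 kb. At Syt13 the polymerase regions were narrow, 0.8 kb of Pol2-S5p and 1.2 kb of Pol2-S7p, and its window overlapped that of the gene Gm13791. At Syt12 the start used lay in the gene, where Pol2-S5p (45.6 kb) and Pol2-S7p (45.8 kb) regions that also hold the start of Rhod spanned the 3′ end and covered the body from that start on. The most upstream start of Syt12 was likewise PRCa, with polymerase regions of 1.4 and 0.8 kb. Syt8, Syt15 and Syt16 were PRCr. H3K27me3 spanned 18.8 kb at Syt8, shared with the start of Tnni2, and 80.8 kb at Syt15, shared with those of Gprin2 and Npy4r. At Syt16 it spanned 24.4 kb and held no other start. The Pol2-S5p region at Syt16 (34.0 kb) also held the start of Snapc1 and reached 0.538 kb after the Syt16 start.

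Synapsins coat vesicles and tether the reserve pool. Syn1 was PRCa, with 3.0 kb of H3K27me3 reaching 0.195 kb before and 2.80 kb after the start. Its Pol2-S5p (30.8 kb) and Pol2-S7p (42.0 kb) regions lay mostly on the other side, reaching 30.2 and 41.4 kb before the start over those of Cfp and Elk1, and 0.604 kb after it. Syn2 had Pol2-S5p only at the start used, which is that of a transcript with a retained intron 118 kb inside the gene, in a region of 2.2 kb shared with the start of Timp4. At its 3 coding starts Syn2 was PRCa, with H3K27me3 over 2.2 kb (score 33.4) and both polymerase marks over 1.0 kb. Syn3 was Active, with regions of Pol2-S5p over 1.4 kb and Pol2-S7p over 0.6 kb at the start and 6.54% of the body in H3K27me3. Inside Syn3, about 264 kb after the most upstream start, Pol2-S5p and Pol2-S7p each had a region of 1.2 kb with scores of 59.9 and 54.6, and no protein-coding gene starts there.

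The 4 SNARE genes had 3 different states. Snap25, which encodes the plasma membrane SNARE cleaved by several botulinum toxins, had 8.2 kb of H3K27me3 (chr2:136706400-136714599), most of it (7.05 kb) before the start. No Pol2-S5p or Pol2-S7p region touched any of its 3 starts or its body. The H3K27me3 region ended 1.15 kb after the start and included both RE1 cores given for this gene. Vamp2, the main vesicle SNARE of the forebrain, was Active, with its whole body inside 23.4 kb of Pol2-S5p and 22.4 kb of Pol2-S7p that also held the start of Per1. It had no H3K27me3 at any start. Vamp1, the vesicle SNARE of the neuromuscular junction and brainstem, was PRCa inside 82.4 kb of H3K27me3 and 71.2 kb of Pol2-S5p, both shared with Tapbpl and Cd27, and 1.0 kb of Pol2-S7p, also shared with Tapbpl. Its start used is that of a noncoding transcript inside the gene, in a window that overlaps the one of Tapbpl. With protein-coding transcripts only, the start with the most Pol2-S5p was taken, and there Vamp1 was PRCr. At its most upstream coding starts Vamp1 was PRCa, with a separate Pol2-S7p region of 0.6 kb. Stx1a, the partner of Snap25 in the plasma membrane, was PRCa at a start in the gene. H3K27me3 extended 205 kb before that start, over Abhd11, Cldn3 and Cldn4, and 1.14 kb after it. Pol2-S7p extended 0.46 kb before and 28.3 kb after it, over Dnajc30 and Bud23.

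The complexins bind the assembled SNARE complex. Cplx1 was PRCa, with 4.0 kb of H3K27me3 and 1.0 kb of each polymerase mark around the start, the latter with scores above 76.3% of Pol2-S5p and 56.8% of Pol2-S7p regions. Cplx2 was PRCr, with 29.2 kb of H3K27me3 over the whole body and 3.8 kb of Pol2-S5p. The related genes thus differed in both width of H3K27me3 and presence of Pol2-S7p.

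The priming genes encode the scaffolds Rims1 and Rims2 and the Munc13 protein Unc13a, which opens syntaxin. Rims1 (chr1:22286251-22805994) was PRCr, with 3.8 kb of H3K27me3 whose score exceeded that of 93.3% of the list. Its Pol2-S5p region of 2.0 kb scored above only 17.0% of the Pol2-S5p list. About 267 kb inside Rims1 a further H3K27me3 region of 5.6 kb overlapped Pol2-S5p and Pol2-S7p regions of 1.0 kb, and no protein-coding gene starts in it. Rims2 was PRCa, with 3.0 kb of H3K27me3 and 2.8 kb of each polymerase mark, and polymerase scores of 41.4 and 41.9 that exceeded 91.5% and 92.9% of those lists. Of 7 Rims2 starts at least 2 kb from the start used, 4 were Inactive, 2 had H3K27me3 only and 1 was PRCr. Unc13a was PRCa in 128.6 kb of H3K27me3 and 111.4 kb of Pol2-S5p, both shared with Jak3, Insl3 and B3gnt3. Polymerase did not reach all of its starts, since 3 starts 25.8 to 30.4 kb into Unc13a had H3K27me3 only.

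Of the vesicle membrane proteins, Sv2a, the target of the drug levetiracetam, was PRCa. H3K27me3 began 0.151 kb before its start and ran 41.2 kb downstream over the whole body and the starts of Bola1, Hist2h2ab and Hist2h2ac. Pol2-S7p lay upstream (26.6 kb), over the starts of Sf3b4 and Mtmr11, and ended 1.05 kb after the Sv2a start. Sv2b was PRCr with 2.8 kb of H3K27me3 and 1.6 kb of Pol2-S5p, and its window overlapped that of 1500012K07Rik. Syp, which encodes synaptophysin, was Active at the start used, that of a transcript with a retained intron 5.44 kb inside the gene. At its other 5 starts Syp was PRCa, in an H3K27me3 region of 33.2 kb that ended before the start used. Snap91, which encodes the clathrin adaptor AP180, was PRCa with 6.6 kb of H3K27me3, 1.8 kb of Pol2-S5p and 1.6 kb of Pol2-S7p. Snap91 was Active at 2 starts 81.8 and 82.0 kb inside the gene.

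**Figure D2:**
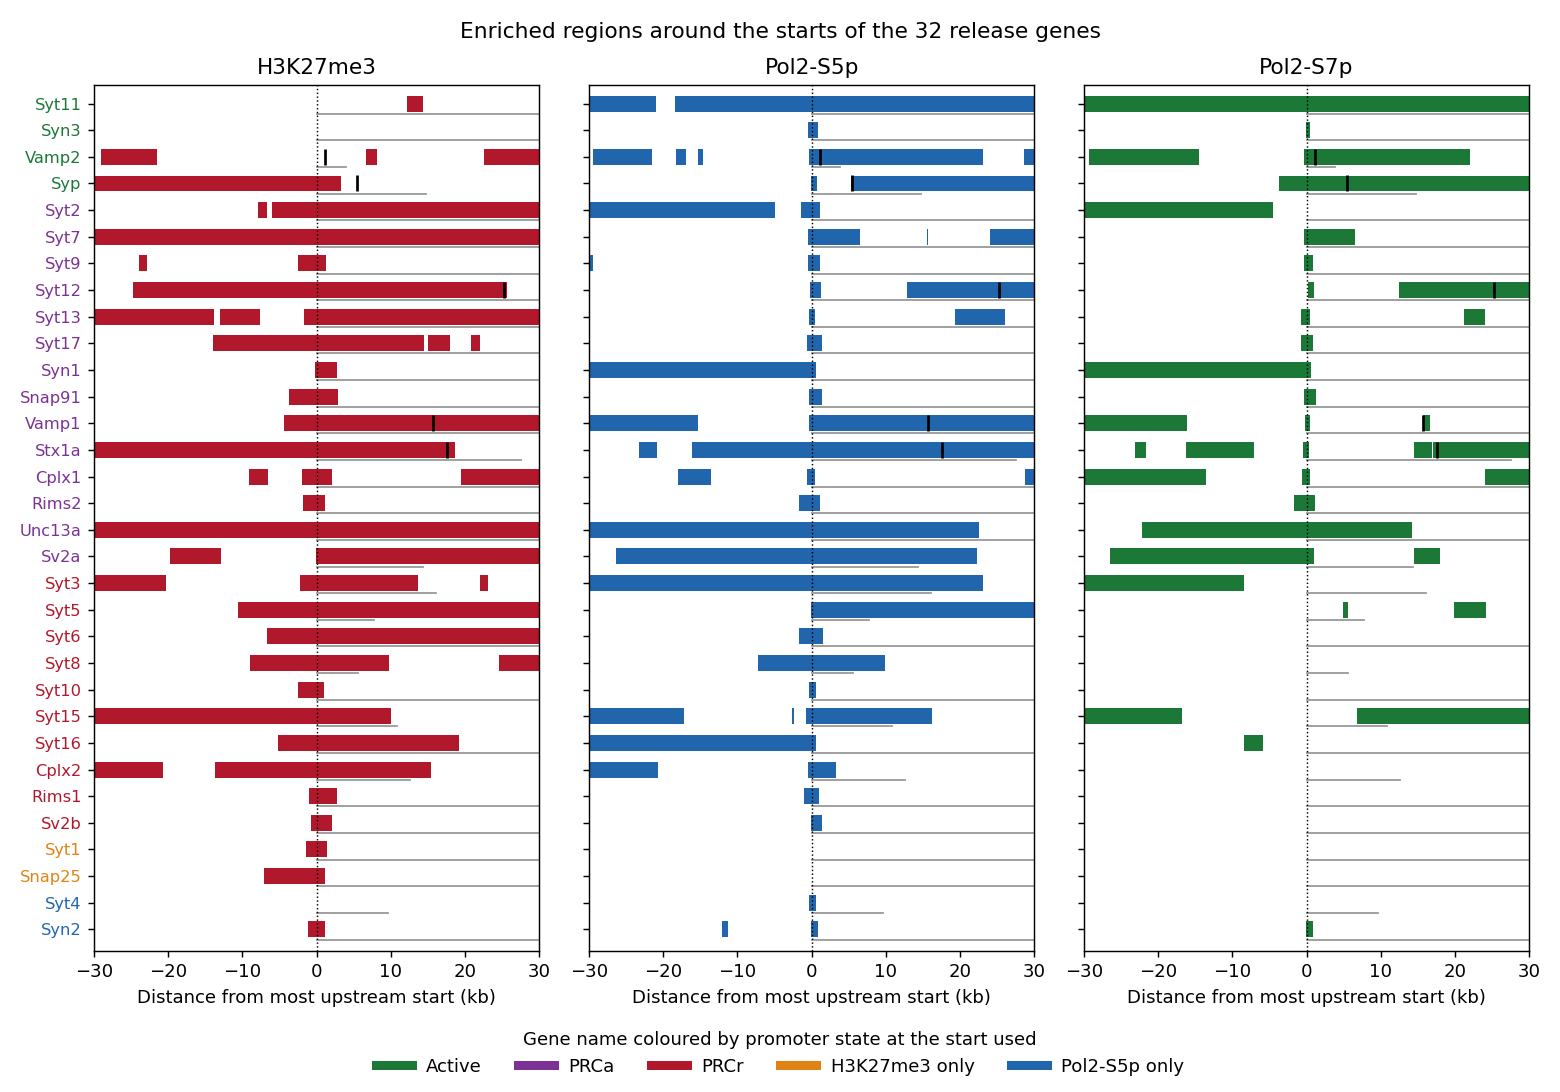
Enriched regions of each mark (bars) within 30 kb of the most upstream start of each release gene, in kb along the direction of the gene. Gene names are coloured by promoter state, grey lines mark the gene, and black ticks mark the start used where it lies 1 to 30 kb inside the gene (it lies further inside Syt2 and Syn2). H3K27me3 is narrow at genes such as Rims1 (3.8 kb) and Syt1 (2.8 kb) and spans the plotted range at Syt7 and Unc13a.

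The choice of start mattered for single genes more than for the counts. The 32 genes had 152 distinct starts, and 4 genes had only 1. Of 19 genes with a start at least 2 kb from the start used, 16 had a different state at such a start. At the most upstream start 29 genes kept their state, while Syn2 and Syp became PRCa and Syt2 PRCr. H3K27me3 was then present at 28 of 32 release promoters (87.5%), compared with 39.4% of protein-coding promoters. Syt4 and Vamp2 had it at no start. Over all 152 starts, 53 were PRCa, 47 PRCr, 18 Inactive, 17 H3K27me3 only, 15 Active and 2 Pol2-S5p only.

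The width of the regions at the promoters fell into a broad range. H3K27me3 regions had a median of 22100 bp at the 26 release promoters that carried the mark, against 16800 bp at 8248 protein-coding promoters, and ranged from 2800 to 271200 bp. At 8 genes, which were Syt1, Syt9, Syt10, Syn1, Cplx1, Rims1, Rims2 and Sv2b, the region was at most 4 kb wide (30.8%, against 25.2%), and at 16 it was over 10 kb (61.5%, against 58.3%). In 17 of the 26 genes the region held no other protein-coding start (65.4%, against 58.1%). Pol2-S5p regions had a median of 12000 bp over 30 release promoters, against 17600 bp over 15340, and Pol2-S7p regions 14600 bp over 18 release promoters, against 20600 bp over 13246. When only regions above the median score were kept, the median H3K27me3 width was 5300 bp over the 14 release promoters left.

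Width and gene length went in opposite directions. The release genes had a median length of 53.4 kb, against 17.4 kb for protein-coding genes, and 10 of them (31.2%) were 100 kb or longer, against 11.4%. This limit of 100 kb was set with values known. The 8 long release genes with H3K27me3 at the promoter had a median width of 3800 bp, against 4800 bp for 1363 long protein-coding genes, and the 18 shorter ones 45900 bp, against 21800 bp for 6885 shorter protein-coding genes. Across the 26 genes, Spearman's rho of length and width was -0.54 and Pearson's r of their log10 values -0.54, against -0.22 and -0.21 across 8248 protein-coding genes. The genes share 1 library, neighbouring genes can share a region, and the correlation is given as a description.

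**Figure D3:**
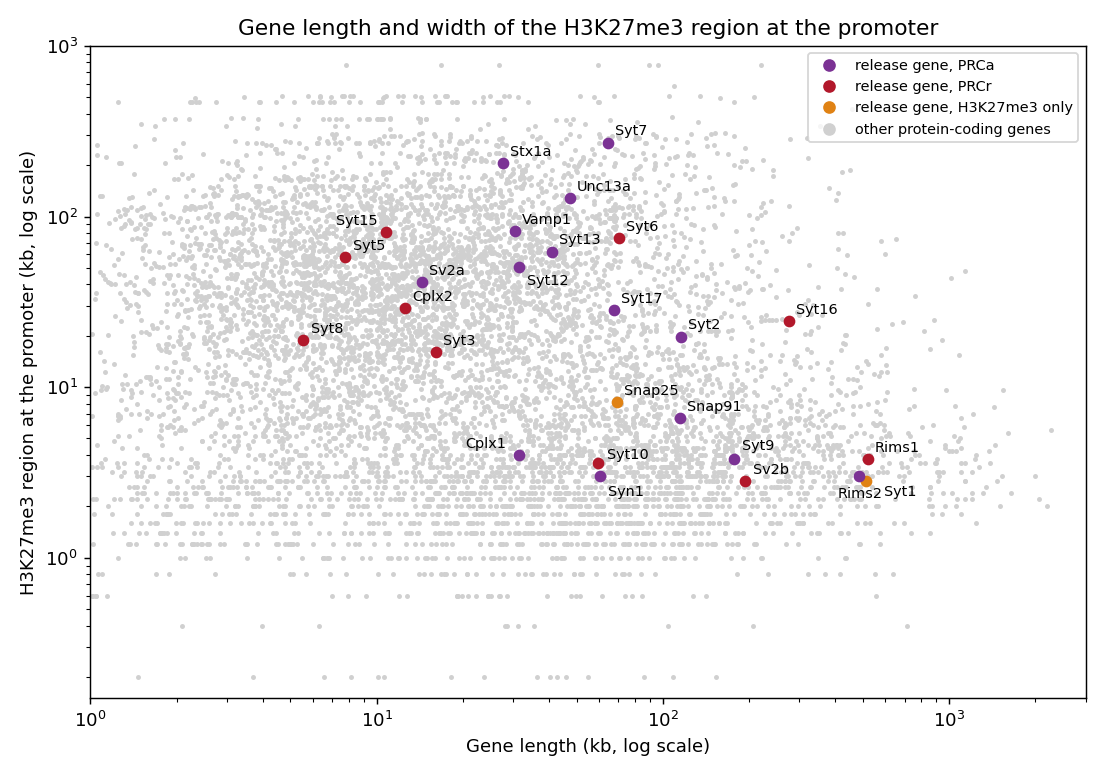
Gene length (horizontal, kb, log scale) and width of the H3K27me3 region at the promoter (vertical, kb, log scale) for the 26 release genes with the mark (coloured by state) and all other protein-coding genes with it (grey). Rims1, Rims2 and Syt1 lie at the lower right, with regions of 2.8 to 3.8 kb, while Syt7 and Stx1a carry the widest regions.

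The gene body from the start used to the gene end was then measured. A median of 7.74% of the release gene bodies lay in H3K27me3, against 0% over protein-coding genes, and 28.1% lay in Pol2-S5p, against 13.6%. Pol2-S7p covered a median of 1.48%, against 5.10%. H3K27me3 covered the whole body of 7 genes (Syt5, Syt7, Syt8, Syt13, Vamp1, Cplx2 and Sv2a). It covered under 5% of the body in 13 genes (40.6%, against 67.5% of protein-coding genes). The share with the whole body covered was 21.9%, against 14.3% of protein-coding genes. Pol2-S5p covered the whole body of 11 genes (34.4%, against 32%) and Pol2-S7p that of 5 (15.6%, against 30.4%), which were Syt11, Syt12, Vamp2, Stx1a and Syp. Of these 5, Syt11, Vamp2 and Syp were Active, and the regions at all 5 also held the start of another protein-coding gene. Syn3 was the exception among the Active genes, with 3.19% of its body in Pol2-S5p and 0.802% in Pol2-S7p. The PRCr release genes had a median of 88.6% of the body in H3K27me3, against 77.8% in all PRCr protein-coding genes, and 0.103% in Pol2-S7p, against 0%. The PRCa release genes had 36.1% in H3K27me3, against 42.0%, and 12.1% in Pol2-S7p, against 47.7%. The medians depend on where the body begins: over the whole annotated span, H3K27me3 covered a median of 25.1% of the release genes. That value is not comparable with the 0% of protein-coding genes, which was measured from the start used.

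**Figure D4:**
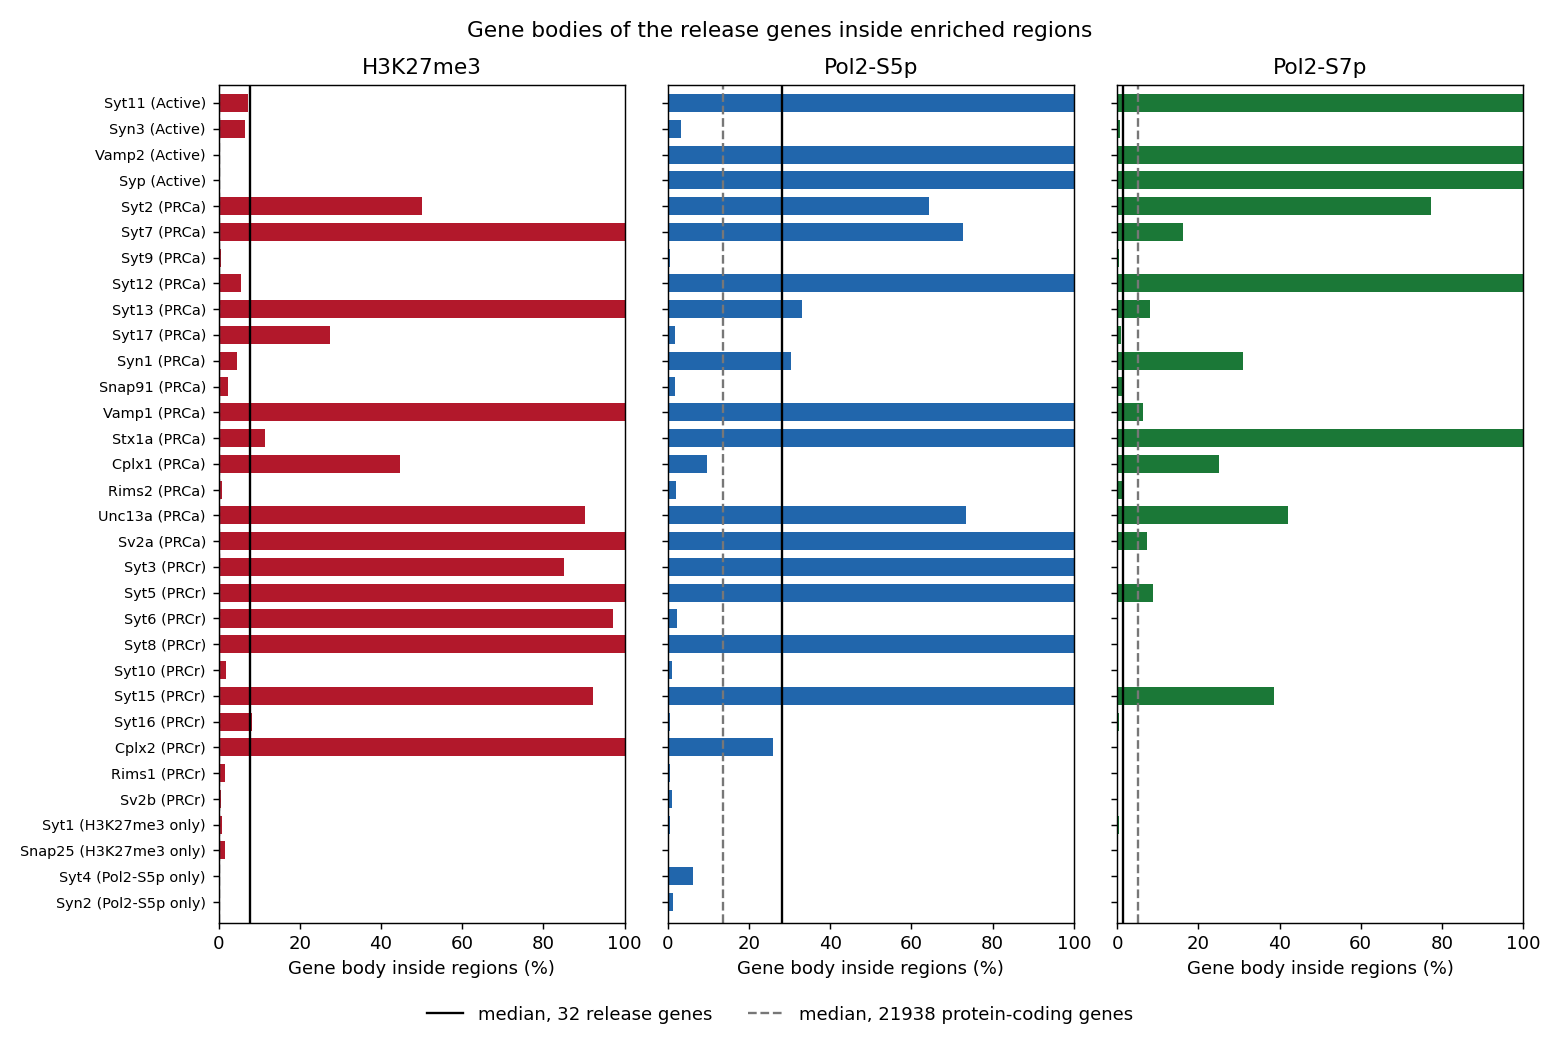
Share of each gene body inside regions of each mark, in percent (bars), for the 32 release genes sorted by promoter state. Lines mark the median over the release genes (solid) and over the 21938 protein-coding genes (dashed), which is 7.74% and 0% for H3K27me3 and 1.48% and 5.10% for Pol2-S7p.

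Finally, the states were set beside those of other genes of the vesicle cycle, in lists that share no member with the 32. Among 24 other SNARE and priming genes, 19 carried H3K27me3 (79.2%, against 37.6% of protein-coding promoters). Cadps, Cadps2, Doc2a and Rab3a were among its 11 PRCa genes and Doc2b, Rab3b and Rph3a among its 4 PRCr genes, whereas Napb, Snap47 and Stx3 were Active. Of 11 active zone scaffolds 10 carried H3K27me3 (90.9%), including Bsn, Erc2 and Pclo (all PRCa), and Erc1 alone was Active. Of 18 genes of vesicle membrane and transmitter loading 12 carried H3K27me3 (66.7%). Among them were the transporters Slc17a7 (PRCa), Slc17a6 and Slc32a1 (PRCr) and Slc17a8 (H3K27me3 only).

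The fusion proteins that most cells use differed from these lists, and the endocytosis genes did so in part. Of 23 widely used fusion proteins, 20 were Active, such as Bet1, Gosr1, Gosr2 and Napa, against 36.1% of protein-coding promoters. H3K27me3 was at 2 of the 23, Stxbp2 and Vamp8 (8.70%, against 37.6%). Of 20 endocytosis genes, 14 were Active (against 36.1%), including the clathrin adaptor subunits Ap2a1, Ap2a2, Ap2b1 and Ap2m1. H3K27me3 was at 6 of the 20, including Amph, Dnm1 and Dnm3. This share (30%) was near that of all protein-coding promoters (37.6%). Of 8 synaptotagmin-like and extended synaptotagmin genes, 5 carried H3K27me3 and only Esyt2 was Active. Their share with H3K27me3 (62.5%) was near that of the genes of vesicle membrane and transmitter loading (66.7%). The share with H3K27me3 thus ran from 8.70% to 90.9% over these lists, with 81.2% in the 32 release genes and 37.6% in all protein-coding genes.

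**Figure D5:**
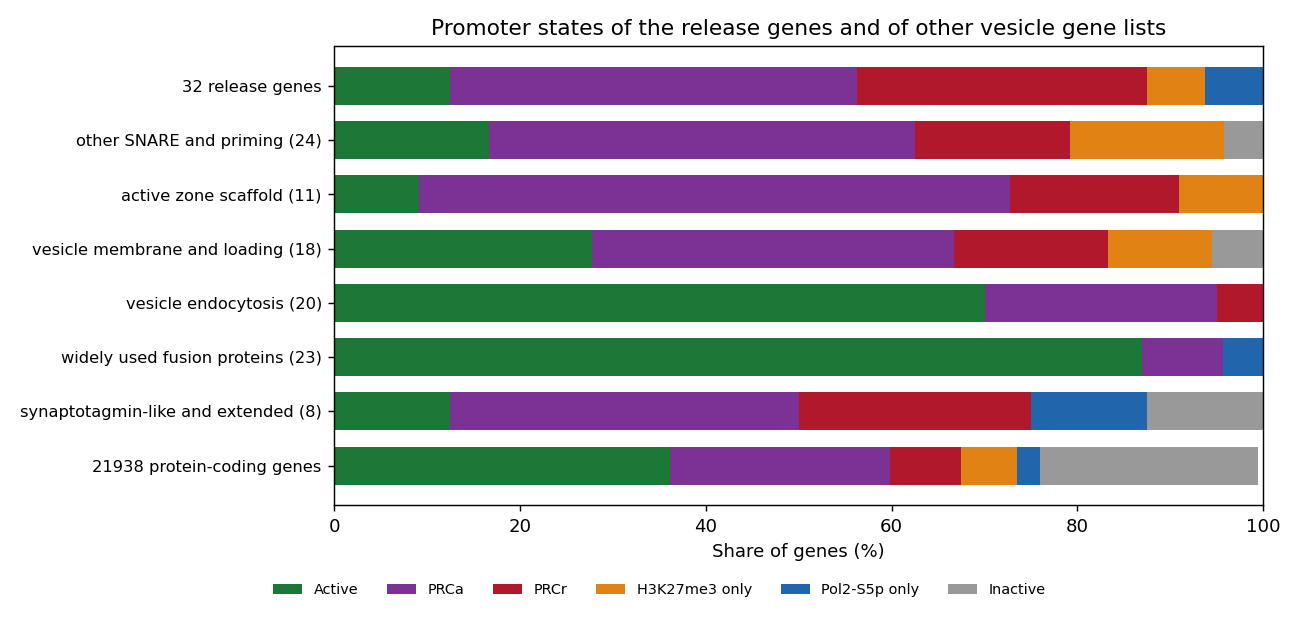
Share of genes in each promoter state, in percent, for the 32 release genes, 6 other lists of the vesicle cycle (number of genes in parentheses) and all protein-coding genes. Rare states are not drawn, so the bottom bar ends just before 100%. Active genes make up 12.5% of the release genes and 36.1% of protein-coding genes, while 20 of the 23 widely used fusion proteins are Active.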

How the data were processed

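As the labels and the study's methods give it, the authors aligned 75 bp single-end reads with Bowtie2 2.3.4.3 to mm10, with strain variant positions masked, and called regions per library with the BCP peak finder in its histone mode. The deposited lists gave each region a position, a width in bp (other kind of value, always a multiple of 200) and a score. No source used here gives a unit for the deposited score, which served only to rank or filter regions. The study ranked starts by reads. For promoter states it also required reads above a threshold, and it left out overlapping genes and genes with close starts. Here region length replaced reads, then Pol2-S7p length, longest transcript and identifier decided. No read threshold was applied, and overlapping windows were kept.

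Genes came from GENCODE M21 on GRCm38 (also called mm10), and sequence from the same assembly. Coordinates count from 1. Regions counted as touching a window from 1 bp. Gene lengths span all transcripts. Scripts used Python 3.11.15, NumPy 2.4.6, SciPy 1.17.1 and Matplotlib 3.10.9. The members and gene lists were chosen with earlier results of these data known. All 32 members are named. Other genes were named as up to 4 per state and list in alphabetical order, or as up to 3 nearest at a region shared with a member promoter. Some items that this rule gives are not reported here. Alternatives were other starts, window sizes, overlaps and region filters.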

Additional observations from a re-analysis of the deposited data

How the results depend on the processing

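With 1 library per mark, no spread between replicates, depth or allele difference could be measured, and wide regions and low scores set most calls. Windows of 1 or 4 kb changed no state of the 32 genes. Of 128 counts and medians under alternatives 87 stayed and 41 moved. Counts with a small change were taken as staying, such as PRCr at 12 genes instead of 10 with protein-coding transcripts only. A median stayed only if identical. Some counts could not move, such as those of polymerase marks when only H3K27me3 regions were filtered, so the tally is no measure of stability. The tally covers the release genes' own values. Set against protein-coding genes, Pol2-S5p and PRCr turned from above to below the background with regions above the median score. The cause was not tested where a value moved. At the start of the longest transcript 2 genes were Active (6.25%, against 33.5% of protein-coding genes) and 1 had Pol2-S5p only (3.12%, against 1.32%). Another 2 (Snap91 and Syn3) were Inactive there (6.25%, against 25.9%). Pol2-S5p only was left at 1 gene at the most upstream start (3.12%, against 1.23%) and with protein-coding transcripts only (3.12%, against 1.76%). Without the 4 members whose window overlaps another, Pol2-S5p only was left at 1 of 28 (against 2.77% of protein-coding genes with a window of their own). With at least 50% of the window covered, 1 gene had H3K27me3 with Pol2-S7p (3.12%, against 0.506%). Without H3K27me3 regions over 10 kb, 10 genes carried H3K27me3 (31.2%, against 15.7% of protein-coding genes), 13 were Active (40.6%, against 49.5%), 5 PRCa (15.6%, against 10.3%), 3 PRCr (9.38%, against 3.02%) and 9 had Pol2-S5p only (28.1%, against 7.1%), and median H3K27me3 body cover was 0%. Without polymerase regions over 10 kb, 15 carried Pol2-S5p (46.9%, against 29.7%) and 10 Pol2-S7p (31.2%, against 23.1%). Under this filter 1 was Active (3.12%, against 9.08%), 7 PRCa (21.9%, against 9.68%) and 5 PRCr (15.6%, against 6.47%). H3K27me3 stood alone at 12 (37.5%, against 18.8%), 2 had H3K27me3 with Pol2-S7p (6.25%, against 2.61%) and 3 were Inactive (9.38%, against 47.1%). With regions above the median score, 14, 10 and 8 genes carried H3K27me3, Pol2-S5p and Pol2-S7p. Then 3 were PRCa (9.38%, against 8.02%), 1 PRCr (3.12%, against 4.99%), 9 H3K27me3 only (28.1%, against 9.79%) and 11 Inactive (34.4%, against 44.1%). Under this filter Vamp1 had Pol2-S7p only and Unc13a had H3K27me3 with Pol2-S7p. Median widths were 5300, 1900 and 2000 bp and median body covers 0.270%, 0% and 0% for the 3 marks. For the release genes alone, body cover over the whole span was 25.1% for H3K27me3 and 1.59% for Pol2-S7p. Without the first 2 kb it was 7.07%, 21.04% and 0.622% for the 3 marks. In alternatives added after seeing the data, the RE1 core lay in 7 gene spans (21.9%, against 1.96%) and in 3 windows at the most upstream start. For the latter no share over protein-coding genes was computed. No paired analysis was possible because each mark has 1 library and the labels carry no replicate numbers.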
